A study of Mus musculus with 8 samples.

Results

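Eph receptors and ephrins are cell-surface partners that neurons use to read contact with their neighbours. The 10 genes described here, Epha4, Epha5, Epha6, Epha7, Ephb1, Ephb2, Efna3, Efna5, Efnb2 and Efnb3, were taken by symbol, and all 10 were found among the 32531 genes counted in each library. Their levels were compared between the nucleus accumbens and the dorsal striatum, with 4 libraries each. Every mouse carried the Drd1-EGFP/Rpl10a (CP73) transgene, in which the promoter of the D1 dopamine receptor gene drives a GFP-tagged form of the ribosomal protein L10a, and every mouse was aged beyond 20 months and untreated. Tagged polysomes were pulled down with antibodies against EGFP, so the RNA is ribosome-bound and meant to come from D1 receptor cells, mostly spiny projection neurons of the direct pathway. No unpurified input was analysed here, and the labels do not say whether a replicate is 1 animal or a pool, so a p-value here sets a difference only against the spread among these libraries, which may be technical. The comparison asks how ribosome-bound RNA of old D1 receptor cells depends on the striatal region.

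Eph receptors are receptor tyrosine kinases. Ephrin-A ligands are held to the membrane by a lipid anchor and bind mainly EphA receptors, while ephrin-B ligands span the membrane and bind mainly EphB receptors, with EphA4 binding both classes. Contact sends a signal into both cells, often one of repulsion, and the system guides axons, sorts cells into compartments and shapes dendritic spines. In the striatum it is known for keeping the matrix apart from the striosomes during development and for ordering incoming and outgoing axons.

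Gene counts ran from 10831937 to 12639641 in accumbens libraries and from 7466970 to 10363145 in dorsal libraries, with no overlap (p = 0.0286 in a two-sided exact permutation test, which cannot give a smaller one at this size). Reads assigned to no gene made up 35.5% to 40.6% of accumbens libraries and 27.1% to 33.8% of dorsal libraries, also with no overlap (exact permutation p = 0.0286), and the ribosomal RNA gene Rn45s took 5.66% to 6.71% and 1.91% to 5.84% of gene counts (exact permutation p = 0.0571). Drd1 was present at 363 to 555 CPM, the read count scaled to a common library size, in accumbens and 533 to 669.6 CPM in dorsal striatum, and the D2 receptor gene Drd2, which marks projection neurons of the indirect pathway, at 47.2 to 72.5 CPM in accumbens and 15.9 to 32.4 CPM in dorsal striatum. All 7 markers of the indirect pathway together summed to 667 to 945 CPM in accumbens and 252 to 355 CPM in dorsal striatum. Penk alone held 543 to 779 and 189 to 275 CPM of these sums, and all 7 markers were higher in accumbens. Those of the direct pathway, 7 including Drd1, summed to 1898 to 2156 CPM in accumbens and 2221 to 2545 CPM in dorsal striatum. Their directions were mixed, with 5 lower and 2 higher in accumbens. Pdyn, 1 of the higher ones, stood at 381 to 472 CPM in accumbens and 161 to 247 CPM in dorsal striatum. The 8 markers of all spiny projection neurons summed to 7494 to 8589.7 CPM in accumbens and 10421 to 12343 CPM in dorsal striatum. Markers of other cells varied between libraries. The 6 cortical glutamatergic markers summed to 23.8 to 100.1 CPM in accumbens and 4.43 to 109 CPM in dorsal striatum, and the 9 astrocyte markers to 271 to 717 and 204 to 385 CPM. Of the astrocyte sums, Slc1a2 alone held 215 to 639 and 177 to 319 CPM. Among the 8 astrocyte markers with enough reads for a test, 7 were higher and 1 lower in accumbens. The 8 endothelial markers summed to 7.08 to 201 and 7.81 to 83.4 CPM, and the 8 microglial markers, among them C1qa at 0 in every library, to 4.80 to 15.3 and 0.985 to 4.24 CPM. Against the other 7 libraries, the median Spearman correlation was lowest for accumbens 2, at 0.927, and for dorsal striatum 3, at 0.935. The part of these differences in the results that follow was not tested beyond the covariate and left-out values given.

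In edgeR's quasi-likelihood test none of the 10 genes was called different between accumbens and dorsal striatum, where a call means p under 0.05 after Benjamini-Hochberg adjustment over all genes that passed a filter on low counts. Of all 12467 genes tested, 3.72% were called, 1.60% higher and 2.12% lower in accumbens, so 0 of 10 is near the background. All 10 genes passed the filter. At an unadjusted p under 0.05, edgeR, DESeq2 and limma-voom each counted 3 of the 10, where edgeR gave 14.8% of all genes, and DESeq2 and limma-voom also called 0 after adjustment. The 4 values of each region overlapped for every one of the 10 genes, while 9.69% of all tested genes did not overlap, 4.51% lying above and 5.18% below in accumbens. The median log2 fold change, accumbens over dorsal striatum, was 0.02 over the 10 genes and 0.02 over all genes tested, with 6 of the 10 positive and 4 negative. In bulk RNA of this kind, fewer cells of a type and less RNA per cell cannot be told apart.

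**Figure D1:**
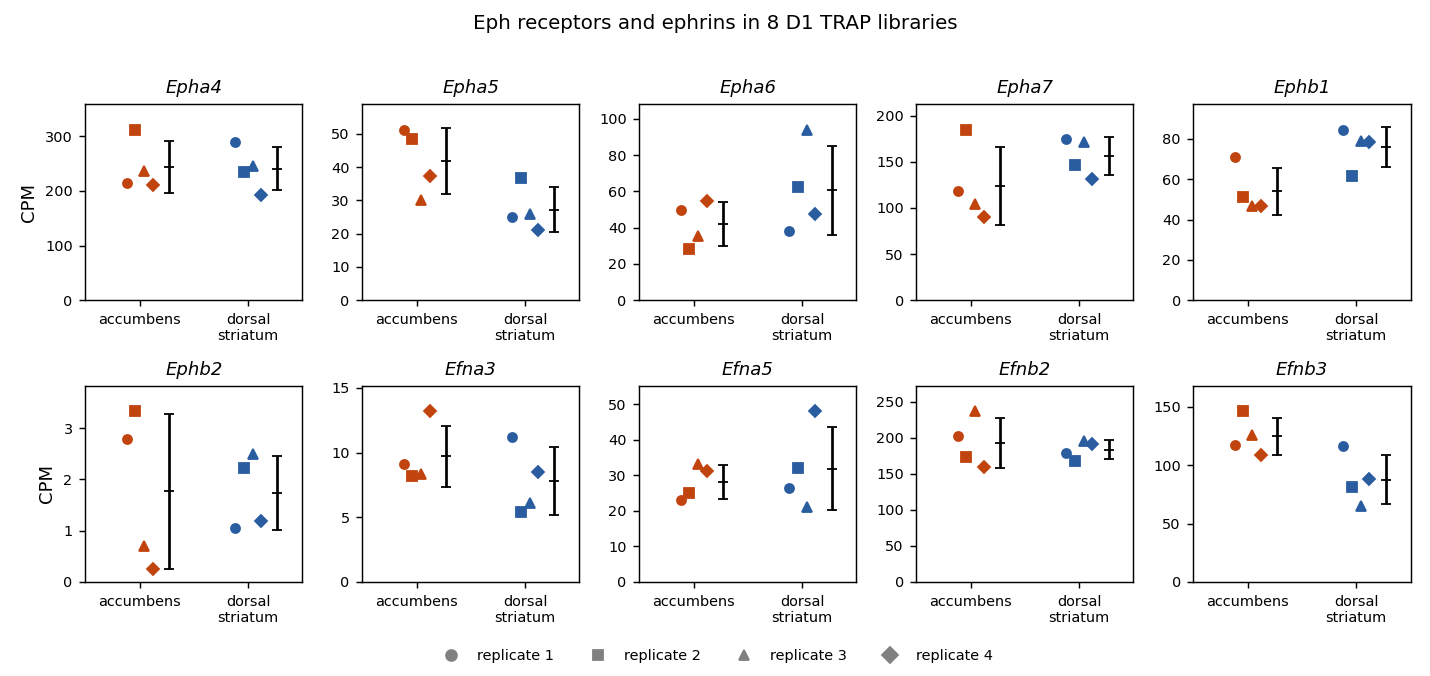
CPM of each gene in the 4 accumbens libraries (left, orange) and the 4 dorsal striatum libraries (right, blue), with marker shape for the replicate number and the mean ± SD beside the points. The regions overlap in every panel, and Efnb3 and Epha5 sit mostly higher in accumbens while Ephb1 sits mostly lower.

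Levels of different genes were set side by side as RPKM, the CPM divided by the exon length in kilobases, since a longer transcript yields more reads. Efnb3, Epha4 and Efnb2 formed the top of the order in both regions. Efnb3 averaged 39.2 ± 5.02 RPKM in accumbens and 27.6 ± 6.75 RPKM in dorsal striatum (SD, n = 4 each). Epha4 averaged 30.3 ± 5.79 and 29.9 ± 4.90 RPKM in accumbens and dorsal striatum, and Efnb2 28.1 ± 5.09 and 26.8 ± 1.83 RPKM. Pooled over the libraries of a region, the values of these genes overlapped with each other. Within single libraries, Efnb3 lay above Epha4 in all 4 of accumbens. Each other neighbouring pair among them was in order in 2 of 4 libraries, so the other places among the top 3 genes were not set apart by the spread. Below them came a gap that no library crossed, since the lowest Efnb2 value was 23.1 RPKM in accumbens and 24.6 RPKM in dorsal striatum, against highest Epha7 values of 18.7 and 17.7 RPKM.

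Epha7, Epha6, Ephb1 and Efna5 followed as a middle group, with means from 6.97 to 12.6 RPKM in accumbens and from 7.92 to 15.8 RPKM in dorsal striatum, and each overlapped with the next. Efna5 lay above Efna3 without overlap in either region (lowest Efna5 5.72 and highest Efna3 5.44 RPKM in accumbens, 5.22 and 4.62 RPKM in dorsal striatum). Efna3, at 4.0 ± 0.975 RPKM in accumbens and 3.21 ± 1.09 RPKM in dorsal striatum, lay above Epha5, at 2.50 ± 0.592 and 1.63 ± 0.403 RPKM. Ephb2 stood at the bottom, with 0.140 ± 0.120 RPKM in accumbens and 0.138 ± 0.0573 RPKM in dorsal striatum, which is 17.8 and 11.8 times below Epha5. The order rests on the summed length of all annotated exons. With the length of the longest transcript instead, 7 genes changed place in each region, Efnb2 came first, Ephb1 passed Epha6 and Epha5 passed Efna3, while Ephb2 stayed last.

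**Figure D2:**
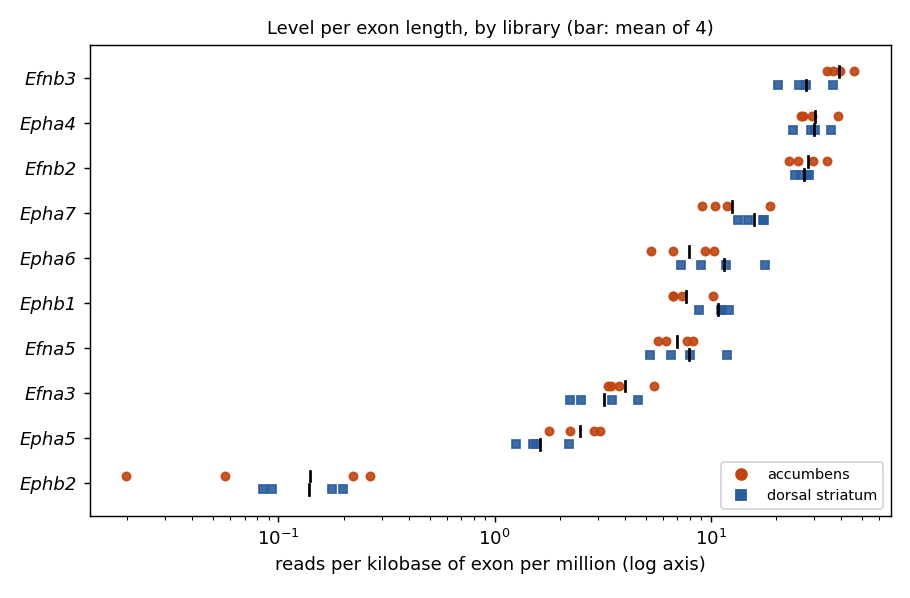
RPKM of the 10 genes on a log axis, 1 point per library (accumbens above, dorsal striatum below in each row) and a bar at each region's mean of 4. Efnb3, Epha4 and Efnb2 sit above 20 RPKM in every library, and Ephb2 stays at or below 0.264 RPKM in every library.

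The start sites of the most and the least abundant of the 6 receptors described are shown because their levels lay so far apart while both upstream regions were rich in CpG pairs, the 2-letter motif CG that marks broadly used mammalian promoters. The 250 bases before the RefSeq start on GRCm38.p6 held 14 CG pairs for Epha4 (chr1:77515089-77515338, minus strand) and 20 for Ephb2 (chr4:136836013-136836262, minus strand). CG reads the same on both strands, so each pair was counted once. Of 32851 mouse promoters in the same table, 29.4% held at least 14 pairs and 17.9% at least 20, and the median was 6. Of the 10 genes 9 had an entry, Efnb3 being the one without, and their windows ran from 10 pairs at Ephb1 to 32 at Efna5. TATAAA, searched on the gene's own strand, was in none of their windows and in 7.59% of all promoters. Each sequence is written 5′ to 3′ with CG in capitals.
Epha4: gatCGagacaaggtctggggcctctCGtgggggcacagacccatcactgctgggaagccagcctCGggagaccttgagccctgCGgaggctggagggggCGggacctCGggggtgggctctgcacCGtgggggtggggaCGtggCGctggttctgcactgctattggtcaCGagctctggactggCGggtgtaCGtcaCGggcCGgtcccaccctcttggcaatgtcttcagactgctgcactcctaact
Ephb2: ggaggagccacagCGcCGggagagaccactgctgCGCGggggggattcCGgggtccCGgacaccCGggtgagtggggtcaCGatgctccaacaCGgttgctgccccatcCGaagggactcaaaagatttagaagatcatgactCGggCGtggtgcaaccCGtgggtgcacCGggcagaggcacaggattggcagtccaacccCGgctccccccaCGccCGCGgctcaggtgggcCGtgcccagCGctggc
Of these receptors, Ephb2 held more CG pairs and had the lower RPKM.

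Among the EphA receptors described, Epha4 (chromosome 1, 77367185 to 77515088, GRCm38) was the main transcript. Its receptor binds both ligand classes and marks the striatal matrix. Epha4 stood at 215, 312, 237 and 211 CPM in accumbens 1 to 4, and at 289, 235, 245 and 193 CPM in dorsal striatum 1 to 4. Accumbens 2 was the highest and dorsal striatum 4 the lowest, and the regions overlapped throughout. The log2 fold change, accumbens over dorsal striatum, was 0.02 ± 0.16 SE (adjusted p = 0.980), with a 95% interval from 0.806-fold to 1.27-fold, among the narrowest in the family. It was -0.12 without accumbens 2 and 0.12 without dorsal striatum 1. Of the summed RPKM of Epha4, Epha5, Epha6 and Epha7, Epha4 took 56.7% ± 3.83 in accumbens and 50.9% ± 5.05 in dorsal striatum (SD, n = 4 each).

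Epha7 (chromosome 4, 28813131 to 28967499) encodes a receptor of ephrin-A ligands whose shortened forms lack the kinase. It had 118, 185, 104 and 89.7 CPM in accumbens 1 to 4, against 175, 147, 172 and 131 CPM in dorsal striatum 1 to 4. Accumbens 2 was the highest of all libraries and the other 3 accumbens libraries lay below every dorsal one. Accumbens over dorsal striatum, its log2 fold change was -0.33 ± 0.20 SE (adjusted p = 0.474), -0.59 without accumbens 2 (adjusted p = 0.0696) and -0.20 without accumbens 4. Over all 19 alternative settings the adjusted p ran from 0.0696 to 0.872. With the cortical marker level as a covariate, the log2 fold change of Epha7 was -0.43 (adjusted p = 0.371).

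Epha6 (chromosome 16, 59653483 to 60605531), another ephrin-A receptor, had 49.5, 28.1, 35.5 and 54.8 CPM in accumbens 1 to 4, against 38.3, 62.4, 94.1 and 47.7 CPM in dorsal striatum 1 to 4. Dorsal striatum 3 was highest by a wide margin, and the remaining libraries of the regions were mixed. The log2 fold change was -0.53 ± 0.28 SE (adjusted p = 0.397), and -0.24 without dorsal striatum 3. Without both dorsal striatum 3 and accumbens 2, the lowest library for this gene, it was -0.09. An exon of Epha6 overlaps an opposite-strand gene, Gm9017, and since the strand setting of the counting was not given in the sources used here, its count may include that gene's reads or miss shared ones.

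Epha5 (chromosome 5, 84054761 to 84417382), a receptor known for axon mapping by ephrin-A gradients, was the least abundant of the 4 EphA receptors described per exon length. It had 51.3, 48.5, 30.0 and 37.3 CPM in accumbens 1 to 4, against 25.1, 36.8, 26 and 21.0 CPM in dorsal striatum 1 to 4. Only dorsal striatum 2 reached into the accumbens range, above accumbens 3. Epha5 had a log2 fold change of 0.62 ± 0.25 SE (fold 1.53, 95% interval 1.06 to 2.21), the largest in size among the 10 genes, and its unadjusted p of 0.0249 became 0.234 after adjustment over all genes. Without dorsal striatum 2 it was 0.80 (adjusted p = 0.151). The glial marker level, as mean centred log2 CPM, was 0.45 in dorsal striatum 2. It lay between -1.01 and -0.37 in the other 3 dorsal libraries and between 0.18 and 0.71 in accumbens. With that level as a covariate, the log2 fold change of Epha5 was 0.19 (adjusted p = 0.989). Since the level largely followed the region, this fit cannot tell them apart, and a glial part in the Epha5 values was not tested. Epha5 took 4.69% ± 0.965 of the RPKM of these 4 EphA receptors in accumbens and 2.79% ± 0.682 in dorsal striatum (SD, n = 4 each), with the regions overlapping.

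EphB receptors bind mainly ephrin-B ligands and act at excitatory synapses. Of the summed RPKM of Ephb1 and Ephb2 alone, Ephb1 took 98.3% ± 1.42 in accumbens and 98.7% ± 0.635 in dorsal striatum (SD, n = 4 each). Ephb1 (chromosome 9, 101922128 to 102354693) had 71.2, 51.4, 46.6 and 46.7 CPM in accumbens 1 to 4, against 84.6, 61.6, 79.1 and 78.4 CPM in dorsal striatum 1 to 4. Accumbens 1 lay above dorsal striatum 2, and all other accumbens libraries lay below all dorsal ones. Its log2 fold change was -0.49 ± 0.19 SE (fold 0.711, 95% interval 0.535 to 0.943, unadjusted p = 0.0209). That difference was not called (adjusted p = 0.213, and from 0.109 without accumbens 1 up to 0.820 in the alternatives). It lay between -0.65 and -0.40 in all 19 alternatives. An exon of Ephb1 overlaps the opposite-strand gene Gm26846, so its count carries the same uncertainty as that of Epha6.

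Ephb2 (chromosome 4, 136647539 to 136835988) encodes a receptor known to bind NMDA receptors at synapses of cortical and hippocampal neurons. It was near the limit of detection, with 2.78, 3.33, 0.711 and 0.248 CPM in accumbens 1 to 4, against 1.06, 2.23, 2.49 and 1.18 CPM in dorsal striatum 1 to 4. These values rest on 3 to 39 reads per library, and accumbens held both the highest and the lowest library. For Ephb2 the log2 fold change was 0.02 ± 0.89 SE (adjusted p = 0.996), with a 95% interval from 0.275-fold to 3.75-fold. The replicate spread of this gene therefore left a wide range of regional differences unresolved.

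Among the 4 ligands, ephrin-B transcripts outnumbered ephrin-A ones per exon length. The summed RPKM of Efnb2 and Efnb3 was 67.3 ± 7.29 in accumbens and 54.4 ± 6.29 in dorsal striatum, and that of Efna3 and Efna5 11 ± 1.78 and 11.1 ± 3.20 (SD, n = 4 each). On the receptor side the order was the other way round, with the 4 EphA receptors at 53.3 ± 8.37 RPKM in accumbens and 58.8 ± 8.37 RPKM in dorsal striatum, and Ephb1 and Ephb2 together at 7.85 ± 1.75 RPKM in accumbens and 11 ± 1.39 RPKM in dorsal striatum. For each of these sums the libraries of the regions overlapped. The ratio of the 4 ligands to the 6 receptors was 1.3 ± 0.191 in accumbens and 0.955 ± 0.203 in dorsal striatum. Its lowest accumbens library (1.10) lay below the highest dorsal one (1.21). These sums and the ratio rest on the summed exon length and were not computed with the longest transcript.

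**Figure D3:**
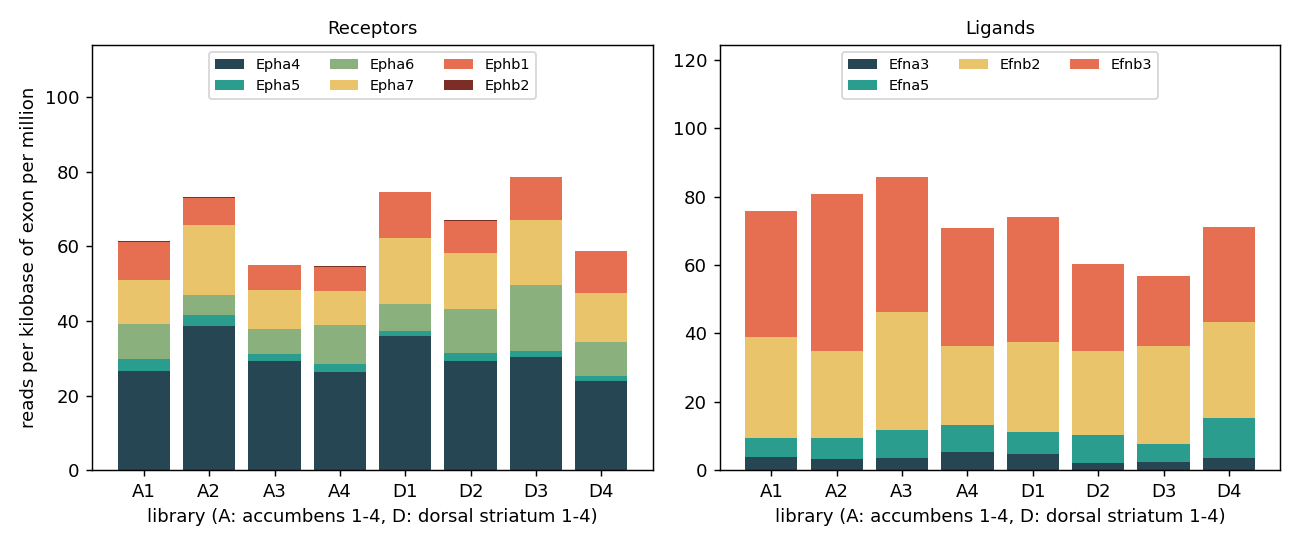
Stacked RPKM of the 6 receptors (left) and the 4 ligands (right) in each library, accumbens A1 to A4 first and dorsal striatum D1 to D4 after them. Epha4 is the largest receptor block and Efnb2 and Efnb3 make up most of the ligand bars in all 8 libraries.

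Efnb3 (chromosome 11, 69554092 to 69560205) encodes the transmembrane ligand that stops corticospinal axons at the midline of the mouse spinal cord. It had 117, 146, 126 and 109 CPM in accumbens 1 to 4, against 116, 81.6, 64.9 and 88.0 CPM in dorsal striatum 1 to 4. Dorsal striatum 1 lay above accumbens 4 and just below accumbens 1, while the other 3 dorsal libraries lay below every accumbens one. Efnb3 had a log2 fold change of 0.51 ± 0.18 SE (fold 1.42, 95% interval 1.09 to 1.85), the smallest unadjusted p of the 10 genes at 0.0121, but it was not called (adjusted p = 0.159). Without dorsal striatum 1 it was 0.67 (adjusted p = 0.0685), and without accumbens 2 and dorsal striatum 3 together it was 0.30. Over all 19 alternatives the adjusted p ran from 0.0685 to 0.525.

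Efnb2 (chromosome 8, 8617434 to 8661242), the transmembrane ligand that also marks arterial endothelium, had 203, 173, 237 and 159 CPM in accumbens 1 to 4, against 179.5, 168, 196 and 192 CPM in dorsal striatum 1 to 4. The accumbens libraries held both the highest and the lowest value and enclosed the dorsal ones. The log2 fold change was 0.07 ± 0.15 SE (adjusted p = 0.896), with a 95% interval from 0.847-fold to 1.3-fold. The summed endothelial markers were highest in accumbens 4, at 201 CPM, and lowest in accumbens 2, at 7.08 CPM, and their part in the Efnb2 values was not tested. Efnb3 took 58.3% ± 4.99 of the RPKM of Efnb2 and Efnb3 in accumbens and 50.2% ± 6.83 in dorsal striatum (SD, n = 4 each), with Efnb2 making up the rest. That share depends on the length used, since Efnb2 lay above Efnb3 in both regions with the longest transcript length.

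Efna5 (chromosome 17, 62604184 to 62881317), a membrane-anchored ligand that repels EphA-bearing axons, had 23.1, 25.0, 33.3 and 31.1 CPM in accumbens 1 to 4, against 26.5, 32.1, 21.0 and 48.0 CPM in dorsal striatum 1 to 4. The dorsal libraries spread wider than the accumbens ones and enclosed them. Its log2 fold change was -0.18 ± 0.27 SE (adjusted p = 0.830), 0.08 without dorsal striatum 4 and -0.34 without dorsal striatum 3.

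Efna3 (chromosome 3, 89313899 to 89322965), the ligand known from mouse hippocampal astrocytes as a partner of EphA4 on spines, had 9.15, 8.19, 8.38 and 13.2 CPM in accumbens 1 to 4, against 11.2, 5.41, 6.09 and 8.47 CPM in dorsal striatum 1 to 4. The regions overlapped, and accumbens 4 and dorsal striatum 1 stood highest in their regions. The log2 fold change was 0.32 ± 0.41 SE (adjusted p = 0.8), with a 95% interval from 0.688-fold to 2.26-fold. It was 0.13 without accumbens 4, 0.55 without dorsal striatum 1, and 0.68 with the glial marker covariate. An exon of Efna3 overlaps the opposite-strand gene Gm15998, with the same uncertainty as above.

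Replicate spread, rather than counting, set the precision for most of these genes. Between libraries of a region, the coefficient of variation ran from 6.82% for Efnb2 in dorsal striatum to 85.7% for Ephb2 in accumbens. Counting error alone, at each gene's mean count, would give 2.0% for Epha4, 2.26% for Efnb2, 5.23% for Epha5 and 23.7% for Ephb2.

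**Figure D4:**
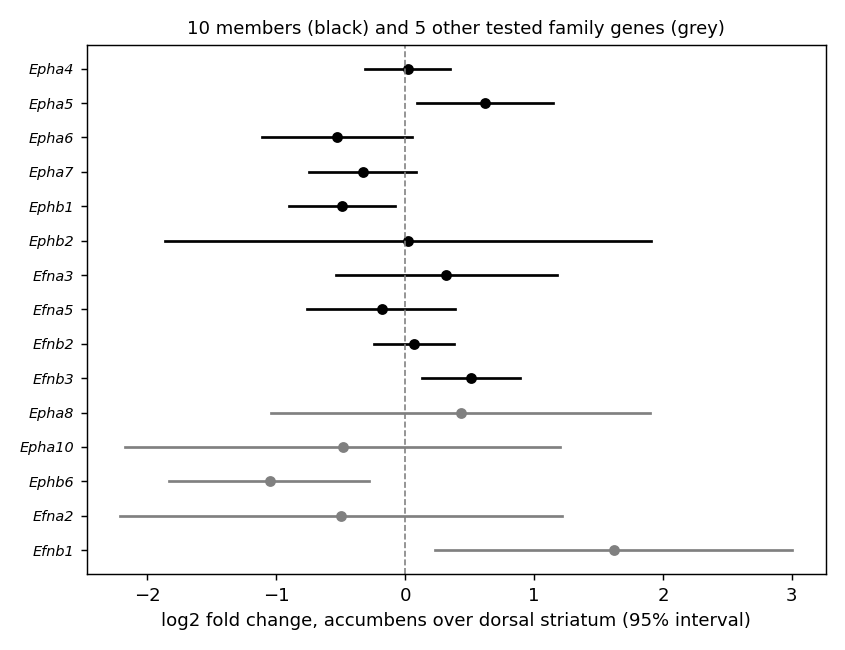
Log2 fold change, accumbens over dorsal striatum, with its unadjusted 95% interval for the 10 genes (black) and 5 other tested family genes (grey). The intervals of Epha5, Ephb1, Efnb3, Ephb6 and Efnb1 leave out 0, and none of the 15 genes passed at an adjusted p under 0.05.

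Of the other 12 Eph and ephrin genes, 5 passed the filter, and none of these was called in edgeR, DESeq2 or limma-voom. At an unadjusted p under 0.05, edgeR and DESeq2 each counted 2 of the 5 and limma-voom 1. Over all genes the shares were 14.8% in edgeR, 16.3% in DESeq2 and 14.9% in limma-voom. Ephb6, a receptor without kinase activity, was the most abundant of them, with 7.0, 10.3, 4.27 and 9.77 CPM in accumbens 1 to 4, against 16.6, 15.5, 20.2 and 12.9 CPM in dorsal striatum 1 to 4. Per exon length Ephb6 averaged 2.08 ± 0.739 RPKM in accumbens and 4.32 ± 0.801 RPKM in dorsal striatum (SD, n = 4 each), above Ephb2 in both regions and above the means of Epha5 and Efna3 in dorsal striatum. Every accumbens value lay below every dorsal one, but the log2 fold change of -1.05 ± 0.37 SE was not called (adjusted p = 0.148, and from 0.0730 to 0.582 in the alternatives). Efnb1, a transmembrane ligand, had 4.84, 11.4, 7.51 and 3.73 CPM in accumbens, against 2.96, 3.29, 2.21 and 0.493 CPM in dorsal striatum. These did not overlap either, and the log2 fold change was 1.62 ± 0.66 SE (adjusted p = 0.234). Of all tested genes, 9.69% did not overlap. Efna2, a membrane-anchored ligand, averaged 2.45 ± 1.38 CPM in accumbens and 3.44 ± 2.93 CPM in dorsal striatum (SD, n = 4 each).

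Efna1 and Efna4 lie on either side of Efna3 on the minus strand of chromosome 3, at 89271733 to 89281142 and 89333390 to 89338028, and were hardly counted. Efna1 had 0 reads in 5 libraries and at most 16, and Efna4 had 0 reads in all 8, where 3 reads correspond to at most 0.415 CPM. An exon of Efna4 overlaps the opposite-strand gene 4731419I09Rik, so shared reads may have been left out. Epha8, an EphA receptor on the same strand of chromosome 4 as Ephb2, at 136929419 to 136956816, had 9 to 48 reads per library, where Ephb2 had 3 to 39.

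Other genes of the pathway carry the signal inside the cell or cleave and anchor the complex. Of 46 partner genes, 43 were tested, and 2 were called higher and 2 lower in accumbens, or 9.30% against the background of 3.72%. The median log2 fold change was 0.02, as over all genes. The partner genes were chosen with earlier results of these data known, and the difference between the shares was not tested.

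The called genes included both chimaerins, which switch off the GTPase Rac. Chn2, encoding beta-chimaerin, had 198, 185, 224 and 151 CPM in accumbens 1 to 4, against 100, 97.6, 89.6 and 81.9 CPM in dorsal striatum 1 to 4. The regions lay well apart, and the log2 fold change was 1.04 ± 0.15 SE (adjusted p = 5.67e-04). Chn1, encoding alpha-chimaerin, a known effector of EphA4 in mouse axon guidance, went the other way, with 863, 788, 747 and 952 CPM in accumbens against 1176, 1157, 1215 and 1372 CPM in dorsal striatum (log2 fold change -0.55 ± 0.11 SE, adjusted p = 0.00744). Exons of both genes overlap opposite-strand genes, so reads of those may be counted with them. Chn1 and Chn2 each kept their call with any 1 library left out. With the glial marker covariate Chn2 was called (0.94, adjusted p = 0.0476) and Chn1 was not (-0.47, adjusted p = 0.230).

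Anks1b, a relative of the EphA adaptor Odin found at synapses, was lower, with 1109.6, 1292, 1060.2 and 1062 CPM in accumbens and 1604, 1629, 1719.6 and 2041 CPM in dorsal striatum (log2 fold change -0.63 ± 0.11 SE, adjusted p = 0.00288). Its log2 fold change was -0.51 with the glial marker covariate (adjusted p = 0.144). Pak1, a kinase that Rac and Cdc42 switch on, was higher, at 535 to 599 CPM in accumbens and 378 to 431 CPM in dorsal striatum (log2 fold change 0.48 ± 0.11 SE, adjusted p = 0.0185). That call was lost without accumbens 2 (adjusted p = 0.0506), accumbens 3 (0.0681), dorsal striatum 1 (0.0600) or dorsal striatum 2 (0.0658), and with the glial marker covariate (0.58, adjusted p = 0.0958).

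Among the guanine nucleotide exchange factors, Ngef and Tiam1 did not pass in edgeR but were called by DESeq2 and limma-voom. Ngef encodes ephexin, which links EphA4 to RhoA in mouse neurons, and had 289.8, 294, 293 and 293 CPM in accumbens 1 to 4, against 394, 420.3, 357 and 332 CPM in dorsal striatum 1 to 4 (log2 fold change -0.36 ± 0.12 SE, edgeR adjusted p = 0.125). Tiam1, a Rac exchange factor, had 236, 203, 209 and 239.5 CPM in accumbens against 165, 157, 168 and 164 CPM in dorsal striatum (log2 fold change 0.44 ± 0.13 SE, edgeR adjusted p = 0.0661). Neither gene's regions overlapped. An exon of Ngef overlaps the opposite-strand gene Neu2, so reads of Neu2 may be counted with it. Of the 43 tested partner genes, 5 lay above and 6 below in accumbens without overlap, against 4.51% and 5.18% of all tested genes.

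Of 10 tested exchange factors and GTPase-activating proteins, 8 were not called in edgeR, such as the spine RapGAP gene Sipa1l1, at 1206 ± 171 CPM in accumbens and 1139 ± 177 CPM in dorsal striatum (SD, n = 4 each). Of 16 kinases and adaptors, 15 were not called, among them the phosphatidylinositol 3-kinase subunit gene Pik3r1 (log2 fold change 0.08 ± 0.13 SE). Of 9 GTPases and cytoskeletal kinases, 8 were not called, including Rac1 (-0.09 ± 0.11 SE) and Rock2 (-0.32 ± 0.12 SE, adjusted p = 0.183). None of the 8 PDZ scaffold, phosphatase and protease genes was called, nor had any an unadjusted p under 0.05, in edgeR, DESeq2 or limma-voom, with Dlg4 at 0.12 ± 0.12 SE and Sdcbp, which encodes syntenin, at -0.17 ± 0.14 SE.

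**Figure D5:**
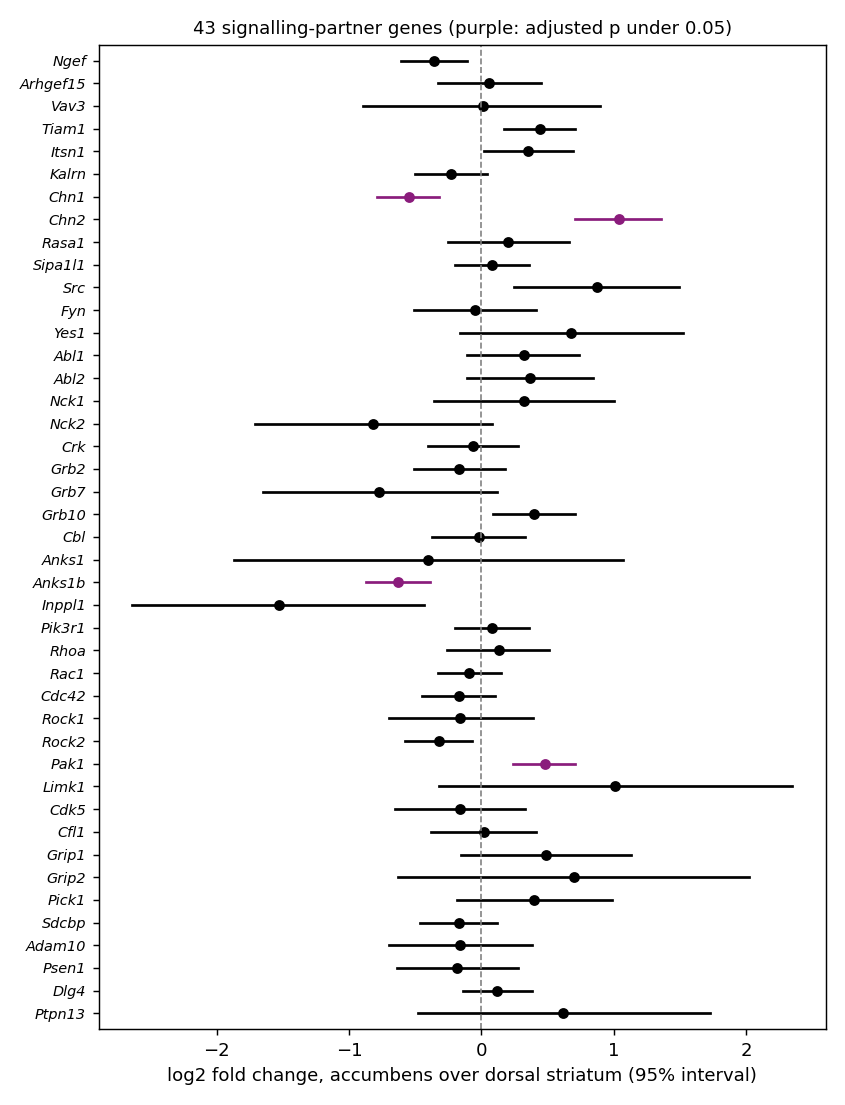
Log2 fold change, accumbens over dorsal striatum, with its unadjusted 95% interval for the 43 tested partner genes, purple where the adjusted p was under 0.05. Chn2 (1.04) and Pak1 (0.48) lie to the right of 0, and Chn1 (-0.55) and Anks1b (-0.63) to its left.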

How the data were processed

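The authors deposited raw counts of reads per gene symbol. The submitters' processing notes name STAR 2.0.0e, HTSeq and mm10, while the annotation, strand setting and filters are not given in the sources used here. Totals of reads assigned to no gene, 35.5% to 40.6% of accumbens and 27.1% to 33.8% of dorsal striatum libraries, were left out. Region was the only term in edgeR 4.0.16 (R 4.3.3; quasi-likelihood test, TMM scaling, filterByExpr with a minimum count of 10), with Benjamini-Hochberg adjustment over all genes tested. Intervals of fold changes are 95% and unadjusted. The test was checked on simulated data. CPM and RPKM were computed from TMM-scaled library sizes and, for RPKM, the union of GENCODE M21 exons, whose GRCm38 coordinates are 1-based and match mm10. Log2 CPM used a prior count of 2. Alternatives used DESeq2 1.42.0, limma 3.58.1 and other settings named in the closing section. The genes and lists were chosen with earlier results of these data known. All 10 genes are described. Of other family genes the 3 most abundant per length are named, and of each partner list up to 4 called genes and the 2 with the highest CPM. Genes of like pattern were to be named for called members, and there were none. Ngef, Tiam1, Epha8, Efna1, Efna4 and Rn45s were named after their values were seen. No 2 libraries agreed within sampling noise (chi-square per degree of freedom at least 16.5). The intervals of fold changes include the spread among libraries, while limits from read counts cover counting error only.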

Additional observations from a re-analysis of the deposited data

How the results depend on the processing

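In all 19 alternatives, 0 of the 10 genes were called in either direction. In the main edgeR fit the log2 fold changes of Epha4, Ephb2 and Efnb2 lay within 0.07 of 0. Those of Epha4, Ephb2, Efna5, Efna2, Efnb2, Sipa1l1 and Pik3r1 changed sign in some alternative settings, never with a call. Limma-voom gave -0.11 for Epha4 and -0.57 for Ephb2. The glial marker covariate gave -0.02 for Epha4, -0.72 for Ephb2, 0.10 for Efna5 and 0.47 for Efna2. The cortical marker covariate, added after seeing the data, gave -0.05 for Epha4 and -0.37 for Ephb2. Leaving out accumbens 2 and dorsal striatum 3 together, also added then, gave -0.11 and -0.26. Thinning gave -0.01 for Ephb2. With 1 library left out the range was -0.12 to 0.12 for Epha4, -0.48 to 0.39 for Ephb2, -0.34 to 0.08 for Efna5, -0.80 to 0.24 for Efna2, -0.04 to 0.15 for Efnb2, -0.02 to 0.16 for Sipa1l1 and -0.0024 to 0.14 for Pik3r1. The cause of these changes was not tested.

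Over all genes, 200 were called higher and 264 lower in accumbens. The counts were 350 higher without a filter on low counts, 375 higher with DESeq2, and 49 higher and 79 lower with the glial marker covariate, which left 1 higher and 0 lower among the partner and other family genes. That higher count was 1 to 2 with 1 library left out and 1 without accumbens 2 and dorsal striatum 3 together. In the order of levels, 7 genes changed place in either region with the longest transcript length, and 0 to 2 in accumbens and 0 to 4 in dorsal striatum with 1 library left out. 

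The replicate numbers shared by the regions gave no sign of pairing. Same-numbered libraries had correlations of their deviations from the region mean between -0.08 and 0.01, and no library correlated best with its own number. With 4 libraries per region, noise may hide a shared animal, so this check cannot show whether same-numbered libraries were paired. With the replicate number as a block, 194 genes were called higher and 238 lower, 0 of the 10 among them, and Ephb2 stood at -0.44.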
